A study of Caenorhabditis elegans with 4 samples.

Results

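The regions described are the narrow GEI-11 peaks of the right piRNA domain of chromosome IV in Caenorhabditis elegans. They were chosen from the combined peak list by 2 measured values, position and width: midpoint at or above position 13500000 of chromosome IV (WormBase WS220) and a width under 150 bp. Of the 2811 combined peaks, 773 lay on this stretch, which ran to the last peak of the chromosome at 17461626, and 353 of those were narrow. The other 420, at 150 bp or more, are called wide. Width, position, count and strength on this stretch were used by the choice or come from the same peak calling, so they are given as description without a test.

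The peaks come from chromatin immunoprecipitation with sequencing (ChIP-seq) of young adult hermaphrodites of strain OP179, with the genotype unc-119(ed3) III; wgIs179. The transgene wgIs179 carries unc-119(+) and gei-11 fused to the tags TY1, EGFP and 3xFLAG. It was introduced by bombardment, the strain was outcrossed 3 times, and all samples carry it. Worms were grown at 20 °C, crosslinked with 2% formaldehyde, and the tagged protein was collected with antibodies against green fluorescent protein. There were 2 ChIP samples and 2 input samples (chromatin kept before the immunoprecipitation), and each ChIP sample has its own peak list beside the combined one. The labels do not say whether the replicates are separate cultures, and no untagged strain or input peak list was analysed here.

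GEI-11, also called SNPC-4, is the worm counterpart of the large DNA-binding subunit of SNAPc, the complex that in animals starts transcription of small nuclear RNA genes. In C. elegans it is also known to occupy the piRNA clusters of chromosome IV and to be needed for normal piRNA levels. piRNAs are short germline RNAs that guide the Argonaute protein PRG-1 to foreign and some endogenous transcripts, and most worm piRNA genes are separate small transcription units with their own upstream motif. In the RefSeq gene table (assembly WBcel235), 14714 of 15363 annotated piRNA genes, 95.8%, are on chromosome IV. Positions of that assembly were not set beside WS220 positions, so peaks are named by coordinate, and whether a given peak lies at a piRNA gene was not tested.

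Nearly all narrow peaks of the genome lay on this one stretch. The combined list held 386 peaks under 150 bp, 13.7% of all its peaks. The 353 on the stretch made up 91.5% of them (95% CI 88.2 to 94.0, exact Clopper-Pearson; all intervals are for counting error only, as if peaks were independent). On the stretch 45.7% of peaks were narrow (42.1 to 49.3), against 33 of 2038 peaks, or 1.62% (1.12 to 2.27), in the rest of the genome. The narrow peaks of the stretch had a median width of 67 bp and a median −log10 q of 2.90, against 124 bp and 2.13 for those 33. Each of the 6 chromosomes held some of the 33, and 8 of them lay between 5 and 7 Mb of the same chromosome IV. In replicate 2 the window from 5 to 6 Mb there held 10 narrow peaks of 54, 18.5%. The q-value is the score the authors deposited for each peak, and −log10 q is called strength below. It reflects read depth as well as enrichment, and the depth behind each list is unknown.

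Many of the narrow peaks were only a few bases wide. Widths ran from 2 to 149 bp with quartiles of 23 and 106 bp. Of the 353, 106 were under 30 bp and 39 under 10 bp, while the rest of the genome held 2 peaks under 30 bp, both between 5 and 6 Mb of chromosome IV. The 4 narrowest, each of 2 bp, lay at 14685702 to 14685703, 14774561 to 14774562, 15538506 to 15538507 and 15602008 to 15602009. Their strengths were 3.50, 4.07, 2.90 and 2.33, so the narrowest calls were not all among the weakest. No replicate list held any of the 4, but a replicate 2 peak lay 13 bp from the one at 14774561. At the other end, the widest was at 16256880 to 16257028, with 149 bp and a strength of 3.07, and the next peak up, at 16069950 to 16070099, was called wide with 150 bp and a strength of 4.43. Both overlapped a replicate 2 peak. In total the narrow peaks covered 24.0 kb and the wide ones 136 kb.

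**Figure D1:**
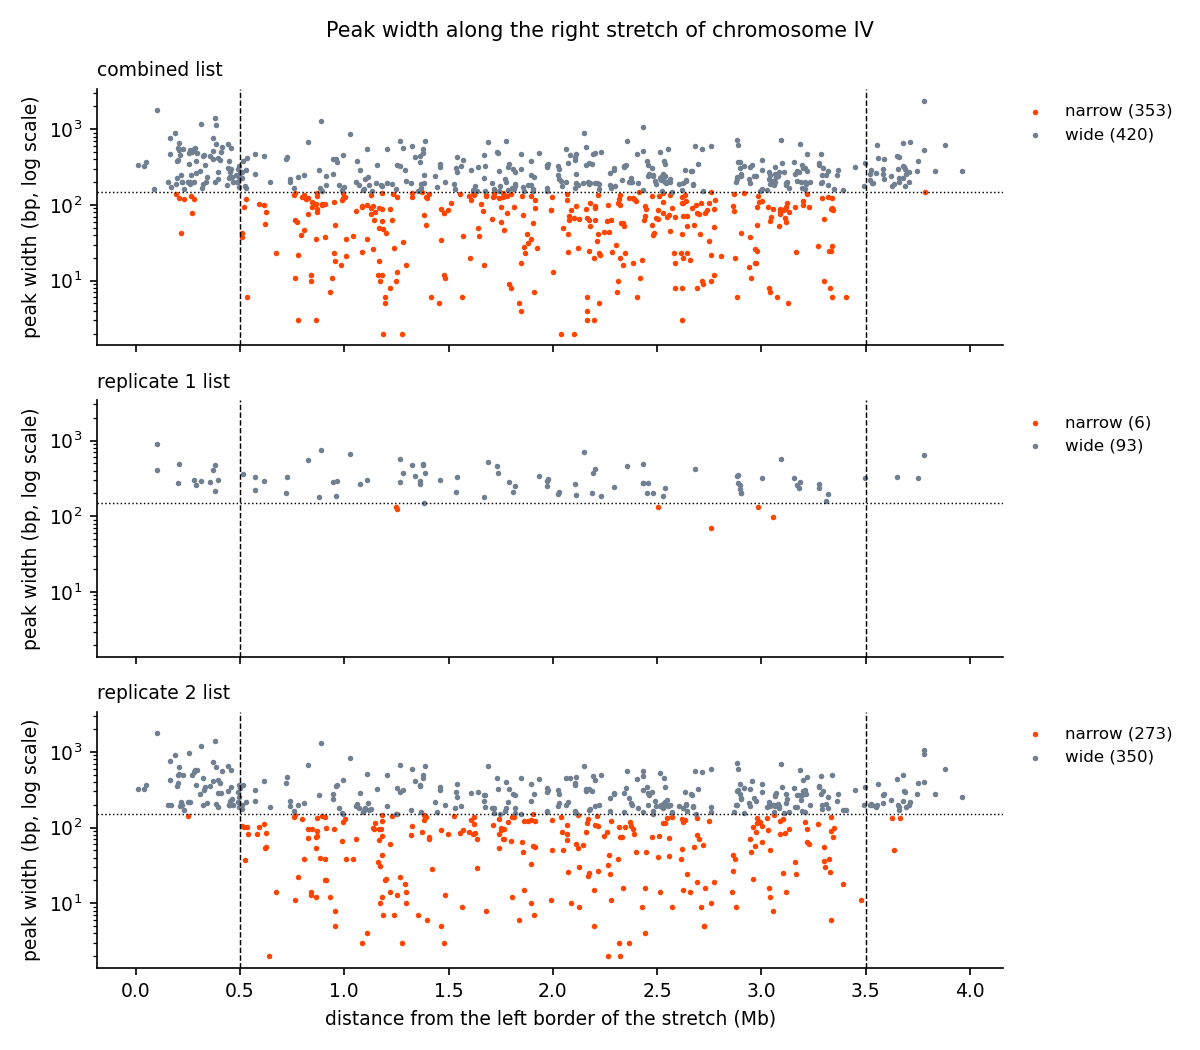
Peak width (bp, log scale) against distance from the left border of the stretch (Mb) in the combined, replicate 1 and replicate 2 lists, with 1 point per peak. The dotted line marks 150 bp and the dashed lines mark 14 and 17 Mb: in the combined list 345 of the 353 narrow peaks lie between the dashed lines, and in replicate 2 269 of 273.

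Along the stretch the narrow peaks filled a block between 14 and 17 Mb and were rare on either side. This block held 345 of the 353 narrow peaks, 97.7% (95.6 to 99.0), or 115 per Mb (95% Poisson interval 103 to 128). Its borders were set after the positions had been seen, so a high share inside follows in part from its definition. The intervals do not allow for this. Between 13500000 and 14 Mb there were 7 narrow peaks beside 81 wide ones, and beyond 17 Mb 1 narrow peak beside 37 wide ones. The left part was therefore not poor in peaks: wide peaks were at 101 per Mb (89.6 to 113) inside the block, at 162 per Mb (129 to 201) left of it and at 80.2 per Mb (56.4 to 110) beyond it. Over the whole stretch the narrow peaks had a density of 89.1 per Mb (80.1 to 98.9) and the wide ones 106 per Mb (96.1 to 117).

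Both borders of the block, chosen after the positions had been seen, fell close to whole megabase positions. In the 0.2 Mb above 14 Mb, 10 of 21 combined peaks were narrow and the narrowest was 6 bp. In the 0.2 Mb below 14 Mb, 0 of 43 were narrow and the narrowest was 169 bp. The first narrow peak inside the block was at 14009395 to 14009437, and the last on its left side at 13780054 to 13780174, with 49 wide peaks in a row between them, of which 47 lay below 14 Mb. At the other border 12 of 22 peaks were narrow in the 0.2 Mb below 17 Mb, and 0 of 27 in the 0.2 Mb above it, where the narrowest was 178 bp. This border is placed less exactly, since the last narrow peak inside was at 16904126 to 16904131 and only 3 wide peaks followed it before 17 Mb. No such change was seen at 15 Mb, with 18 of 35 narrow in the 0.2 Mb above and 17 of 35 below, or at 16 Mb, with 35 of 64 above and 31 of 55 below.

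The replicate 2 list showed the same block, but this sample also feeds the combined list. In replicate 1, 0 of 4 peaks were narrow in the 0.2 Mb above 14 Mb, and 0 of 3 in the 0.2 Mb below 17 Mb. On the outer sides 0 of 6 and 0 of 1 were narrow, so that list held too few peaks there to show or lack a border. All 6 of its narrow peaks lay between 14 and 17 Mb, among 84 peaks, and 0 of its 217 other peaks were narrow. The values that follow first are those of replicate 2. In the 0.2 Mb above 14 Mb 13 of 21 replicate 2 peaks were narrow, against 0 of 35 below. At 17 Mb 11 of 22 were narrow below the border, against 3 of 22 above, the narrowest of them 51 bp wide. With the genome cut into windows of 1 Mb, the 3 windows from 14 to 17 Mb held 108, 126 and 111 narrow peaks in the combined list and 93, 96 and 80 in replicate 2. No other window of the genome held more than 8 in the combined list or 10 in replicate 2. These 3 windows were also the fullest, with 185, 242 and 220 combined peaks, against at most 97 in any other window. The published PeakSeq method sets the read threshold for its candidate regions separately in successive segments of a chromosome. The segment length used for these lists is not given in the sources used here, and its part in the widths was not tested.

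**Figure D2:**
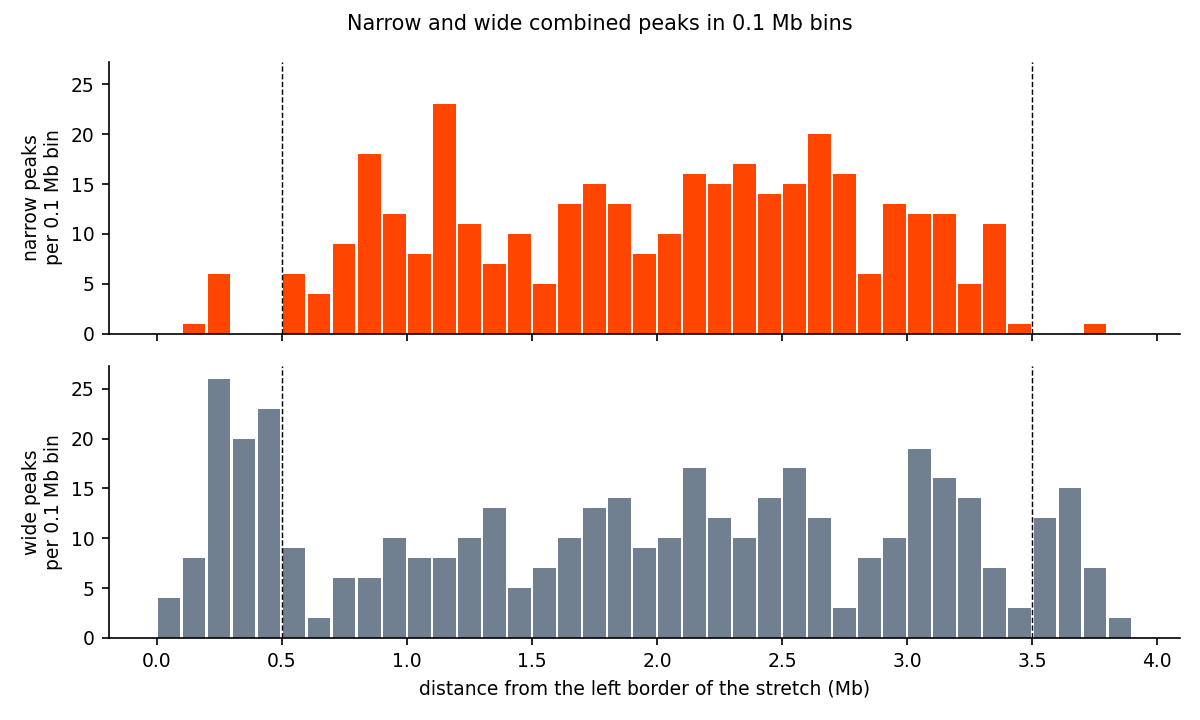
Counts of narrow (upper panel) and wide (lower panel) combined peaks in 39 full bins of 0.1 Mb, against distance from the left border of the stretch (Mb). Dashed lines mark 14 and 17 Mb: each of the 30 bins between them holds 1 to 23 narrow peaks, and 6 of the 9 bins outside hold none.

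Inside the block the narrow peaks were spread throughout, with a varying density. The 30 bins of 0.1 Mb between 14 and 17 Mb held a median of 12 narrow peaks, and none was empty. The fullest bin, from 14.6 to 14.7 Mb, held 23 narrow peaks beside 8 wide ones. The bin from 16.9 to 17 Mb held 1 beside 3 wide ones. In bins of 0.5 Mb the narrow peaks made up 41.0 to 59.8% of peaks across the block. Their median strength was 3.24 in the first of these bins, from 14 to 14.5 Mb, then 3.10, 3.05, 2.87, 2.78 and 2.86 in the following bins, so the values were highest at the left of the block.

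At like strength, peaks were narrower inside the block than on the flanks or in the rest of the genome, a comparison chosen after the positions had been seen. The block was itself drawn where narrow peaks lie, so smaller widths inside it follow in part from its definition. Among combined peaks with a strength of 2.5 to 3, the median width was 55 bp for 122 peaks inside the block. It was 237 bp for 20 peaks of the stretch outside the block and 278 bp for 394 peaks elsewhere. For strengths of 3 to 4 the medians were 105, 279 and 307 bp in the same order. Above a strength of 7, where no peak inside the block was narrow, the medians were 364, 539.5 and 480 bp. This class has no upper limit, so strength is not matched in it. In replicate 2 the medians at a strength of 2.5 to 3 were 81, 221 and 284.5 bp, in the same order.

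The 8 narrow peaks outside the block differed from those inside in several values. Their median width was 122.5 bp, with 43 bp as the least, against 66 bp inside. Their median strength was 2.16 and the highest 2.35, against a median of 2.91 and a highest value of 6.19 inside. None of the 8 was in a replicate list. The first along the stretch was at 13693215 to 13693354, 140 bp wide with a strength of 2.35, and the last at 17284467 to 17284614, 148 bp wide with a strength of 2.02. Both medians were closer to those of the 33 narrow peaks of the rest of the genome, 124 bp and 2.13, than to those inside the block.

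Spacing was irregular, with narrow and wide peaks mixed. The midpoints of neighbouring narrow peaks were a median of 4607.5 bp apart, with quartiles of 1848 and 10857 bp, and 44 of 352 distances were within 1 kb. The closest pair had midpoints 276.5 bp apart, at 16466828 to 16466844 (17 bp, strength 2.02) and 16467100 to 16467125 (26 bp, strength 2.86). Only the stronger of the pair was in replicate 2. The longest distance, 380412 bp, ran from the last narrow peak inside the block to the only one beyond it.

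Narrow peaks lay about as close to their nearest neighbour of any width as wide peaks did. The median gap was 1181 bp for narrow and 1128 bp for wide peaks, and 42.5% of narrow peaks and 44.3% of wide peaks had a neighbour within 1 kb. No gap in the combined list was under 205 bp, nor under 210 bp in replicate 1 or 208 bp in replicate 2. Neighbouring calls were thus never closer than about that distance in any of the 3 lists. A wide peak lay within 1 kb of 74 of the 353 narrow peaks, 21.0%, and another wide peak within 1 kb of 133 of the 420 wide ones, 31.7%. These shares are for unlike positions, since 118 wide peaks but only 8 narrow ones lay outside the block. The 74 had a median strength of 2.97 and the other 279 of 2.90, with median widths of 68 and 66 bp. Of the 74, 40.5% (29.3 to 52.6) overlapped a replicate 2 peak, against 57.7% (51.7 to 63.6) of the 279.

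**Figure D3:**
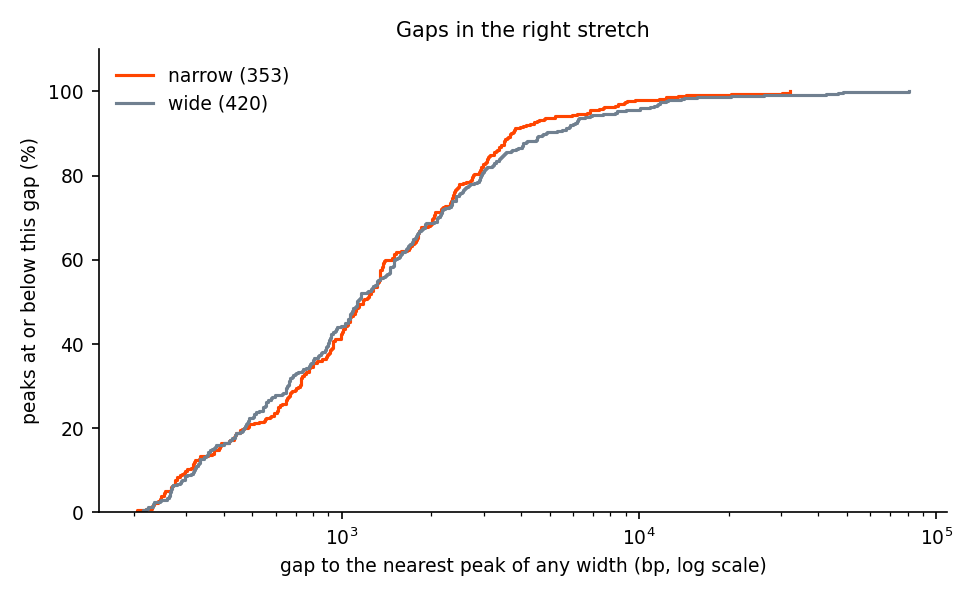
Cumulative share of peaks (%) against the gap to the nearest combined peak of any width (bp, log scale) for the 353 narrow and 420 wide peaks of the stretch. The curves run close together, with medians of 1181 and 1128 bp and no gap under 205 bp.

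Runs of narrow peaks without a wide peak between them were short. In order along the chromosome, 117 narrow peaks had a narrow peak on each side, 74 had a wide peak on each side and 162 had one of each. They formed 155 runs, of which 74 were single peaks and 13 held 5 or more. The longest run, of 12 peaks, spanned 43.2 kb from 14328473 to 14371644, and 10 of its 12 peaks were in replicate 2. Runs of 9 spanned 23.1 kb from 15804732, 103 kb from 16272645 and 21.9 kb from 16821896, with 4, 4 and 8 peaks in replicate 2.

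In strength the narrow peaks stood in the lower part of the list. Their quartiles were 2.52 and 3.41 around the median of 2.90, against a median of 5.15 for the wide peaks of the stretch and 3.23 for wide peaks elsewhere. None was among the first 500 combined peaks, 30 were among the first 1000, and 168 of 353 had a strength above 3. Only 6 passed 5, against 219 of the 420 wide peaks. Across the narrow peaks, width and strength were related with r = 0.40 (Pearson) and rho = 0.37 (Spearman) (n = 353, across peaks of 1 list that share libraries and caller). The relation was seen mostly at the upper end of the width range. The median strength was 2.69 for peaks under 10 bp and again 2.69 at 10 to 29 bp, 2.86 at 30 to 59 bp, 2.87 at 60 to 89 bp, 3.04 at 90 to 119 bp and 3.60 at 120 to 149 bp. Just past the limit, at 150 to 179 bp, it was 3.65, so strength showed no step at 150 bp.

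**Figure D4:**
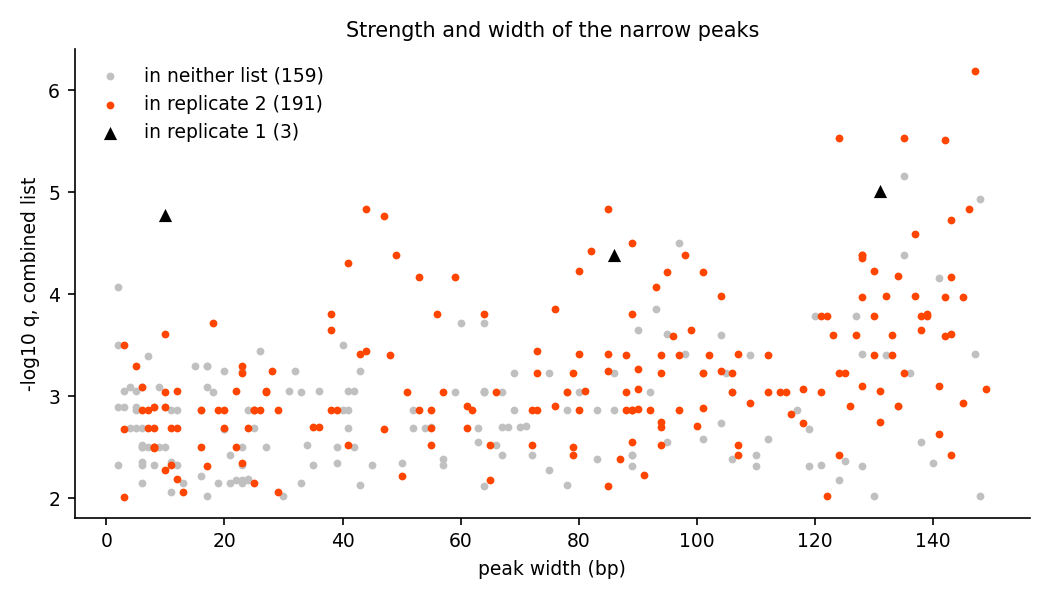
Strength (−log10 q in the combined list) against width (bp) for the 353 narrow peaks, with 1 point per peak, coloured by the replicate list that held it. The 3 triangles are the peaks in replicate 1, the 191 orange points those in replicate 2 and the 159 grey points those in neither; no peak was in both.

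The strongest narrow peaks were moderate in the list as a whole. The strongest, at 14872389 to 14872535, was 147 bp wide and ranked 552 in the combined list. Its strength was 6.19 in the combined list and 4.18 in replicate 2, where the overlapping peak was 86 bp wide. Next were 14328473 to 14328596, with 5.54 in the combined list and 4.20 in replicate 2, and 15120829 to 15120963, with 5.54 and 4.68. The fourth, 14493064 to 14493205, had 5.52 in the combined list and 4.40 in replicate 2. None of these 4 was in replicate 1. The fifth, 14307827 to 14307961, had 5.16 and was in neither list. The nearest replicate 2 peak, 252 bp away, overlapped the neighbouring narrow peak at 14307528 to 14307574. The sixth, 16482219 to 16482349, had 5.01 in the combined list and 2.15 in replicate 1, where its peak was 134 bp wide, and was not in replicate 2.

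The remaining 4 of the first 10 had strengths of 4.83 to 4.94. Peaks 16843679 to 16843763, 15218390 to 15218535 and 15746277 to 15746320 had combined values of 4.84, 4.83 and 4.83, and replicate 2 values of 3.73, 4.68 and 4.98. The one at 15746277 was only 44 bp wide and was the one among the first 10 whose replicate 2 value was above its combined value. The other, 15119354 to 15119501, had 4.94 and was in neither list. Next among the peaks in neither list was 14586894 to 14586990, 97 bp wide, with 4.50. Of the 10 strongest, then, 7 were in replicate 2, 1 in replicate 1 and 2 in neither.

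Just over 50% of the narrow peaks were found in a replicate list, and none in both. Overlap by at least 1 bp with a replicate 2 peak was seen for 191 of 353, 54.1% (48.8 to 59.4), and with a replicate 1 peak for 3, 0.850% (0.176 to 2.46). Over all combined peaks these shares were 72.6% and 10.5%, and 10.2% overlapped a peak in both lists. Among narrow peaks 0 of 353 did so, an exact interval of up to 1.04%. Of the wide peaks of the stretch 382 of 420 were in replicate 2, 91.0% (87.8 to 93.5), and 93, or 22.1% (18.3 to 26.4), were in replicate 1, all of them also in replicate 2. These shares do not match peaks by strength. At strengths of 4 to 5 replicate 1 held 2 of 30 narrow peaks, against 0 of 75 wide peaks of the stretch. At 5 to 7 these counts were 1 of 6 and 2 of 76. Below 4 replicate 1 held no narrow peak and no wide peak of the stretch. The lower replicate 1 share of narrow peaks was thus not seen at like strength, though the counts are small. In neither list were 159 narrow peaks, 45.0% (39.8 to 50.4), and 38 wide ones, 9.05% (6.48 to 12.2). The replicate lists have 301 and 2140 peaks, which bounds these shares, and both ChIP samples feed the combined list, so recovery is no independent evidence for a peak.

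Recovery in replicate 2 was lowest in the weakest class of narrow peaks. It was 28.8% (18.8 to 40.6) of 73 peaks at strengths of 2 to 2.5, 55.4% (45.7 to 64.8) of 112 at 2.5 to 3, and 55.9% (45.2 to 66.2) of 93 at 3 to 3.5. It was 74.4% (57.9 to 87.0) of 39 at 3.5 to 4 and 76.7% (57.7 to 90.1) of 30 at 4 to 5. Of the 6 peaks at 5 to 7 it was 66.7% (22.3 to 95.7). The rise with strength was thus not smooth, with nearly equal shares in the classes from 2.5 to 3.5 and a wide interval in the strongest class. By width, recovery was 33.3% (19.1 to 50.2) under 10 bp and 70.6% (58.3 to 81.0) at 120 to 149 bp.

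At like strength, the recovered share of narrow peaks was below that of wide ones in each class above 2.5, but the intervals overlapped in several classes, and no test was run. At 2.5 to 3 the share was 55.4% for narrow peaks, against 70% (50.6 to 85.3) of 30 wide peaks of the stretch and 63.7% (58.7 to 68.5) of 391 wide peaks elsewhere, and all 3 intervals overlapped. At 3 to 3.5 it was 55.9% for narrow peaks, against 88.6% (73.3 to 96.8) of 35 wide peaks of the stretch and 86.2% (81.2 to 90.2) of 246 elsewhere, and the narrow interval overlapped neither. At 3.5 to 4 it was 74.4% for narrow peaks, against 88.6% (73.3 to 96.8) of 35 wide peaks of the stretch, with overlapping intervals, and 95.4% (90.7 to 98.1) of 151 elsewhere. At 4 to 5 it was 76.7% for narrow peaks, against 94.7% (86.9 to 98.5) and 100% (98.1 to 100) for the wide peaks of the stretch and elsewhere, and the first of these intervals overlaps that of the narrow peaks. In the weakest class, 2 to 2.5, the shares were 28.8%, 34.6% (17.2 to 55.7) and 28.8% (24.9 to 33.0), with overlapping intervals. A narrow peak also offers fewer bases for an overlap, and the part of this in the shares was not tested. With a gap of up to 100 bp also counted, 55.5% of the narrow peaks had a replicate 2 peak.

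**Figure D5:**
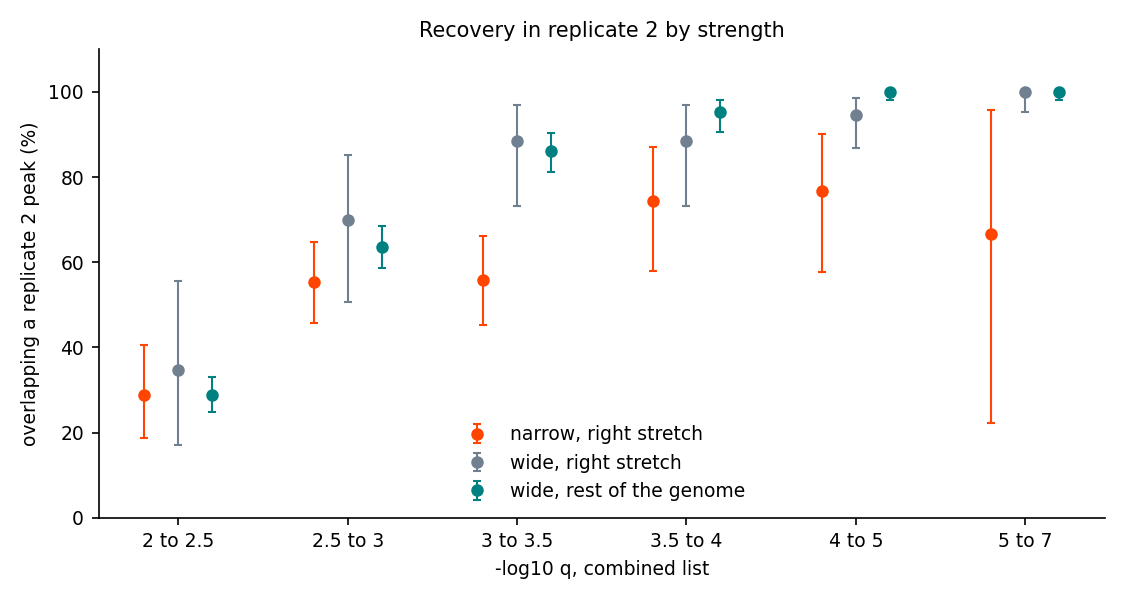
Share of combined peaks (%) that overlap a replicate 2 peak by at least 1 bp, by strength class (−log10 q), for narrow and wide peaks of the stretch and wide peaks of the rest of the genome. Points are shares and bars exact 95% Clopper-Pearson intervals: at 3 to 3.5 the narrow share is 55.9%, against 88.6% and 86.2%, while at 2.5 to 3 it is 55.4%, against 70% and 63.7%, with overlapping intervals.

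Where replicate 2 did hold a narrow peak, its call was usually narrow too. Of the 191 matches, 173 were to a replicate 2 peak under 150 bp and 18 to a wider one, up to 491 bp. Weak replicate 2 peaks between 14 and 17 Mb were mostly narrow in any case. Narrow were 118 of 123 at replicate 2 strengths of 2 to 2.5 and 83 of 102 at 2.5 to 3. At 3 to 4 it was 54 of 114, and at 4 to 7 14 of 95. Replicate 2 also feeds the combined list, so like widths are no independent evidence. The matches involved 189 replicate 2 peaks, since 2 wide ones, of 430 and 491 bp, each overlapped 2 narrow combined peaks. Median widths were 85 bp in the combined list and 76 bp in replicate 2. In 26 matches both edges were identical and in 101 at least 1 edge was. The combined peak lay wholly inside the replicate 2 peak in 99. Strength was higher in the combined list in 158 of 191 matches, with medians of 3.05 in the combined list and 2.77 in replicate 2. Of the 162 peaks without a match, 63 had a replicate 2 peak within 1 kb, and the median gap to the nearest was 1339 bp.

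The 3 narrow peaks found in replicate 1 were all missing from replicate 2. The peak at 14747975 to 14747984 was 10 bp wide with a strength of 4.77 in the combined list, and its replicate 1 peak was 132 bp wide with 2.15. The peak at 16005643 to 16005728 was 86 bp wide with 4.38, against 133 bp and 2.15 in replicate 1. The third is the peak at 16482219 described above. In each case the strength was higher in the combined list than in the replicate, and none had a replicate 2 peak within 1 kb.

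The same rule applied to each replicate list gave narrow peaks of its own. Replicate 2 had 273 on the stretch, 43.8% (39.9 to 47.8) of its 623 peaks there, and 21 elsewhere. Their median width was 66 bp, the least 2 bp, and their median strength 2.61. Of the 273, 173 overlapped a narrow combined peak, 51 only a wide one and 49 none, so 82.1% (77.0 to 86.4) were in the combined list, against 349 of 350 wide replicate 2 peaks of the stretch. Just 1 of the 273 overlapped a replicate 1 peak, against 93 of the 350 wide ones, 26.6% (22.0 to 31.5). Strength was not matched here, with medians of 2.61 for the narrow and 4.74 for the wide replicate 2 peaks of the stretch.

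Of the 99 peaks of replicate 1 on the stretch, 84 lay inside the block. Its list held 6 narrow peaks, all on the stretch and all inside the block. They were 69 to 134 bp wide with strengths of 2.15 to 2.62. Of the 6, 3 overlapped a replicate 2 peak, against all 93 of its wide peaks on the stretch (exact interval from 96.1%). Strength was not matched here either, with medians of 2.15 for the narrow and 5.48 for the wide replicate 1 peaks of the stretch. The 3 with a replicate 2 peak overlapped wider and stronger peaks in the other lists. The one at 14755017 to 14755139 was 123 bp wide with 2.38 in replicate 1, and lay in a 336 bp replicate 2 peak with 16.2 and a 334 bp combined peak with 18.4. The one at 16260364 to 16260432 was 69 bp wide with 2.16, within a 585 bp replicate 2 peak with 14.4. The one at 16555645 to 16555743 was 99 bp wide with 2.62, over a 198 bp replicate 2 peak with 4.33. The other 3 were the replicate 1 counterparts of the narrow combined peaks named before.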

How the data were processed

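For each peak the authors deposited a q-value, and per the file headers the build is WormBase WS220. PeakSeq, which tests ChIP reads in candidate regions against input, is named as the source of each peak. All q-values were below 0.01. Not given in the sources used here are the PeakSeq version, its segment length, the aligner, read filters and how the replicates were joined. Read depth is unknown. Strength is −log10 of the q-value. Width is end minus start plus 1. Peaks of 2 lists were matched on an overlap of at least 1 bp. Intervals on shares are exact Clopper-Pearson at 95%, and those on densities exact Poisson. The interval functions were tested on simulated data. No significance test was run: position, width, strength and recovery come from the lists that chose the peaks. The peaks and all comparisons were chosen with earlier results of these data known. Peaks named are the 10 strongest, the widest and narrowest, the closest and farthest neighbours, the strongest found in neither list, those in replicate 1, the first and last, and those at the width limit; peaks named at the borders of the 14 to 17 Mb block, the start of the longest runs and the narrow peaks of replicate 1 were added after their values were seen. No WS220 sequence was used here, so none is printed. Software was pandas 2.3.3, scipy 1.17.1, numpy 2.4.6 and matplotlib 3.10.9 under Python 3.11.15.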

Additional observations from a re-analysis of the deposited data

How the results depend on the processing

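No paired analysis was possible because the input samples that share numbers with the ChIP samples had no values here and no result comes from a test. Of 102 recomputed values 50 stayed within the interval of the reported value (counts: within 1.5 times), 52 moved and 0 changed sign; causes were not tested beyond what each setting does by construction. The settings limited to the block from 14 to 17 Mb and without peaks under 30 bp were chosen after seeing the data. With a width limit of 100 bp the narrow share was 32.5%, the median width 41 bp, the median strength 2.87, the midpoint distance 6641 bp, the density 63.4 per Mb, the strength difference to wide peaks −1.67 and the excess of the narrow share over the rest of the genome 32.0 points. With a limit of 200 bp these were 60.0%, 91.5 bp, 3.05, 3602 bp, 117 per Mb, −3.50 and 55.7 points, and recovery in replicate 2 was 60.6%. With the border at 17 Mb the density was 101 per Mb. In the stronger 50% of the list there were 102 narrow peaks, a share of 22.8%, with a median width of 98 bp, strength 3.79, midpoint distance 18359 bp, nearest gap 1575 bp and density 25.7 per Mb. Recovery was then 71.6% in replicate 2 and 2.94% in replicate 1, with a difference to wide peaks of −25.8 points in replicate 2, and the excess share was 22.7 points. An overlap of 50% or more of the peak gave 43.9% in replicate 2. Inside the block the narrow share was 53.3%, the density 115 per Mb, the strength difference −3.06 and the excess share 51.4 points. Without peaks under 30 bp the share was 37.0%, the median width 90 bp, strength 3.04, midpoint distance 7442 bp, density 62.3 per Mb and excess share 35.5 points. Leaving out either replicate, so that the other list stood alone, gave 6 to 273 narrow peaks, a share of 6.06 to 43.8%, median widths of 66 to 127.5 bp, strengths of 2.15 to 2.61, midpoint distances of 6476 to 221894 bp, nearest gaps of 1672 to 22042 bp, densities of 1.51 to 68.9 per Mb, strength differences of −3.33 to −2.13 and an excess share of 6.06 to 42.4 points. The low ends of the count, share and density come from replicate 1, whose list holds 301 peaks. Recovery of the 6 narrow replicate 1 peaks in replicate 2 was 50%, a difference to its wide peaks of −50 points, and that of narrow replicate 2 peaks in replicate 1 was 0.366%. The recovery differences to wide peaks were not matched by strength. Merging peaks within 200 bp changed nothing, since no gap was that short. With the depth of each list unknown, absence from replicate 1 cannot be read as absence of binding.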
